A study of Homo sapiens with 12 samples.

Results

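The 10 genes described here encode enzymes that make serine and asparagine or carry one-carbon units on folate: PHGDH, PSAT1, PSPH, SHMT1, SHMT2, MTHFD1, MTHFD2, MTHFD1L, ALDH1L2 and ASNS. They were chosen by gene name, and all 10 were found among the 58575 genes of the read count table and the 60617 genes of the TPM table, where TPM (transcripts per 1000000) is a level per gene length. The 12 RNA-Seq libraries came from cells of the established iPSC line 201B7 on Day 5 of culture, and 4 conditions had 3 libraries each. Cond 1 was the control, kept in StemFit as in routine iPSC maintenance. Cond 2 (low nutrient) received StemFit that had been heated at 56 °C for 30 min. Cond 3 (differentiation) received DMEM with 1% GlutaMax, 1% MEM NEAA (non-essential amino acids) and 10% FBS. The paper describes the heated medium as used from Day 2, and the FBS stimulus as given on Day 4. Cond 4 (labelled physical stimulas) was dissociated by pipetting 20 times at passage and then grown like the control. Only the line 201B7 was used. The paper's methods give each condition its own well on a plate and repeat the arrangement 3 times, whereas its results call the replicates technical. The p-values below therefore measure the spread between the 3 libraries of a condition in that line.

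Serine is made from the glycolytic intermediate 3-phosphoglycerate in consecutive steps by PHGDH, PSAT1 and PSPH. Serine hydroxymethyltransferase then splits serine into glycine and a one-carbon unit on tetrahydrofolate, in the cytosol (SHMT1) or in mitochondria (SHMT2). In mitochondria MTHFD2 oxidizes that unit, MTHFD1L then releases it as formate, and ALDH1L2 oxidizes it to carbon dioxide. The single cytosolic protein MTHFD1 joins formate to folate again for purine and thymidylate synthesis. ASNS makes asparagine from aspartate and glutamine. Many of these genes are known targets of the transcription factor ATF4, which is translated when amino acids run short, and pluripotent and other proliferating cells are known for high one-carbon flux.

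Total counts per library ranged from 16441148 to 21871503. The 6 markers of pluripotent stem cells (SOX2, LIN28A, DNMT3B, L1TD1, ZFP42 and PODXL) exceeded 1 TPM in each condition, with a summed level of 6409 to 6631 TPM in Cond 1, 6329 to 7086 TPM in Cond 2, 7283 to 8015 TPM in Cond 3 and 6370 to 6696 TPM in Cond 4. The members of that sum differed. L1TD1 averaged 592 TPM in Cond 1, 380 TPM in Cond 2 and 449 TPM in Cond 3, and PODXL 1939, 1637 and 2076 TPM. In the same order SOX2 averaged 908, 1304 and 1263 TPM, and LIN28A 1689.5, 2117 and 1897 TPM. DNMT3B averaged 1370.5, 1378 and 1867.5 TPM, and ZFP42 8.07, 7.75 and 11.3 TPM. Of the pluripotency factors outside this list, added after their values were seen, NANOG had 43.6 to 47.2 TPM in Cond 1, 20.2 to 24.6 TPM in Cond 2, 9.93 to 11.3 TPM in Cond 3 and 44.6 to 48.1 TPM in Cond 4. POU5F1 had 1.03 to 1.57 TPM in Cond 1 and 0.412 to 0.789 TPM in Cond 2, without overlap. It had 1.045 to 1.41 TPM in Cond 3 and 1.03 to 1.32 TPM in Cond 4. These are low levels, although the paper's staining found most control cells positive for the POU5F1 protein (OCT4). How reads of this gene were assigned is not given in the sources used here, so the level of POU5F1 is uncertain. The 5 neural ectoderm markers summed to 346 to 540 TPM in Cond 2, against 20.1 to 28.2 TPM in Cond 1, 55.0 to 74.4 TPM in Cond 3 and 26.7 to 41.7 TPM in Cond 4, and HESX1 and LHX5 made up most of it. The 5 markers of surface ectoderm and amnion were also highest in Cond 2, at 39.1 to 72.6 TPM against 21.0 to 24.4 TPM in Cond 1 and 29.4 to 33.9 TPM in Cond 3, with DLX5 at 13.7 TPM on average in Cond 2 and 0.0694 TPM in Cond 1. The 6 fibroblast markers summed to 416 to 447 TPM in Cond 1, 255.6 to 305 TPM in Cond 2 and 579 to 615 TPM in Cond 3, with DCN, LUM and COL3A1 under 1 TPM throughout. Within them COL1A1 averaged 246 TPM in Cond 1 and 436 TPM in Cond 3, whereas THY1 averaged 141 and 48.9 TPM. The mesoderm and endoderm sums stayed under 20 TPM. The part of these markers in the differences below was not tested, and in bulk RNA fewer cells of a type cannot be told apart from less RNA per cell.

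In the control the levels of the 10 genes ranged from 0.177 to 1518 TPM, and no neighbours in that order overlapped. PSAT1 stood first with 1518 ± 116 TPM (SD, n = 3), rank 57 of all genes in the table. PHGDH followed with 468 ± 4.92 TPM, SHMT2 with 401 ± 26.5 TPM and MTHFD2 with 237 ± 5.50 TPM. PSPH stood at 127 ± 6.58 TPM, MTHFD1L at 91.9 ± 6.06 TPM and MTHFD1 at 51.4 ± 1.85 TPM. ALDH1L2 had 15.7 ± 2.93 TPM, ASNS 7.15 ± 1.65 TPM and SHMT1 0.177 ± 0.101 TPM. ASNS shares 49.3% of its exonic bases with another gene on the same strand. How reads there were assigned is not given in the sources used here, so the level of ASNS is uncertain. The mitochondrial enzymes SHMT2, MTHFD2 and MTHFD1L were each above the cytosolic enzyme of the same step on the TPM scale. For MTHFD1L this order rests on the division by gene length. In reads it lay below MTHFD1 in each control library (2040 to 2888 against 2845 to 3711).

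**Figure D1:**
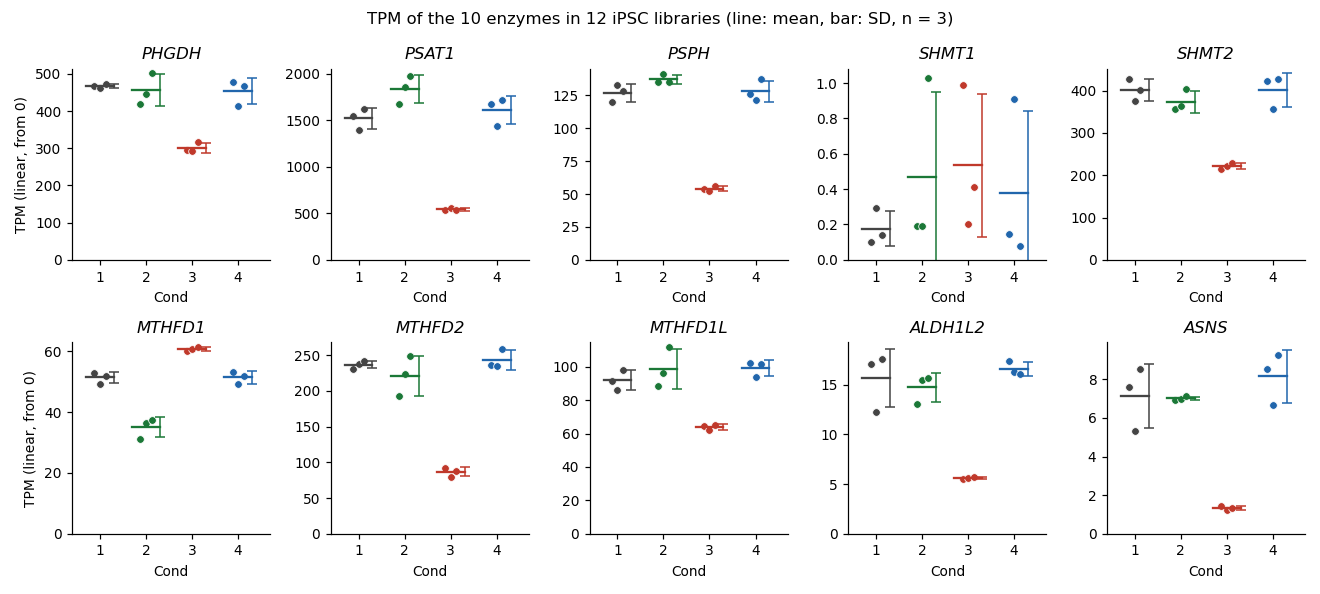
TPM (linear axis from 0, one scale per gene) of the 10 enzymes in each of the 12 libraries of Cond 1 (control), Cond 2 (low nutrient), Cond 3 (differentiation) and Cond 4 (physical stimulus); points are libraries, lines the mean and bars the SD of 3 libraries, cut at 0 for SHMT1. In Cond 3, 8 genes lie below every Cond 1 library and MTHFD1 lies above them, and MTHFD1 is the gene that stands lowest in Cond 2.

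The first question was how the enzymes changed when the maintenance medium was replaced by the differentiation medium. In Cond 3, 8 of the 10 genes fell against Cond 1, MTHFD1 alone rose and SHMT1 did not pass the test, in edgeR's quasi-likelihood test with Benjamini-Hochberg adjustment over the 17747 genes tested. Of all genes tested, 18.8% were called lower and 19.5% higher at the same threshold of an adjusted p-value under 0.05. Among the 8, 5 genes (PSAT1, PSPH, MTHFD2, ALDH1L2 and ASNS) fell by more than 2-fold, as did 3.31% of all genes. The median log2 fold change of the 10 genes was -1.07, and that of all genes was -0.0064. The TPM ranges of Cond 3 and Cond 1 did not overlap for these 8 genes, which were lower, nor for MTHFD1, which was higher, while 22% of all genes were lower and 26.6% higher without overlap. An exact permutation test on TPM gave p = 0.1 for each of these 9, the smallest value that 3 libraries against 3 allow. Summed over the 10 genes, the level was 2752 to 3038 TPM in Cond 1 and 1325 to 1357 TPM in Cond 3.

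**Figure D2:**
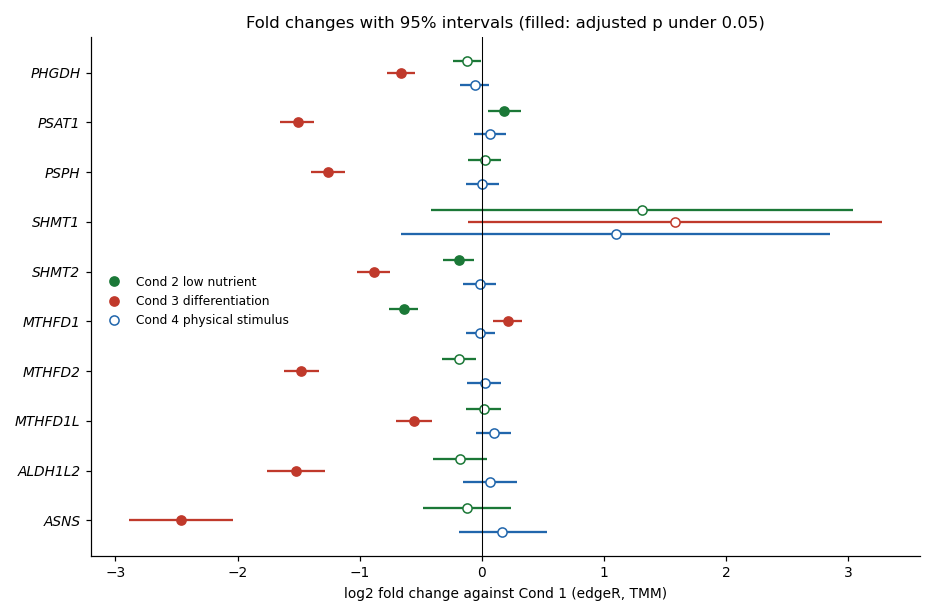
Log2 fold change of each enzyme against Cond 1 with its 95% interval (edgeR, 12 libraries) for Cond 2, Cond 3 and Cond 4; filled points passed an adjusted p-value under 0.05. The Cond 3 points of 8 genes lie left of 0 with ASNS farthest at -2.46, the intervals of SHMT1 are the widest, and no Cond 4 point is filled.

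PHGDH, which catalyses the first step of serine synthesis (ENSG00000092621, chr1:119648411-119744218, forward strand, GRCh38), had 467, 463 and 472 TPM in the 3 control libraries. The values were 294, 292 and 316 TPM in Cond 3, and 419, 445 and 504 TPM in Cond 2. All Cond 3 libraries lay below all control libraries, whereas the Cond 2 libraries surrounded them. PHGDH fell in Cond 3 with a log2 fold change of -0.67 (SE 0.0575, edgeR adjusted p = 4.78e-09), to 64.3% of the control mean in TPM.

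PSAT1, the aminotransferase of the next step (ENSG00000135069, chr9:78297125-78330093, forward strand), had 1546, 1391 and 1618 TPM in the control. It had 537, 562 and 533 TPM in Cond 3, and 1679, 1857 and 1970 TPM in Cond 2. The 3 conditions did not overlap, with Cond 2 highest and Cond 3 lowest. PSAT1 fell 2.85-fold in Cond 3 (log2 fold change -1.51, SE 0.0657, edgeR adjusted p = 5.9e-14). Its rank among all genes was 57 in Cond 1 and 212 in Cond 3. Of the 31-base words of its exons, 30.8% also occur elsewhere on the primary chromosomes, and its 4 annotated processed copies took 24 to 135 reads per library, at most 0.655% of the PSAT1 reads.

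PSPH, the phosphatase that releases serine (ENSG00000146733, chr7:56011051-56051604, reverse strand), had 120, 133 and 129 TPM in the control. It had 54.1, 52.2 and 56.1 TPM in Cond 3, less than any library of the other conditions. The log2 fold change was -1.26 (SE 0.0673, edgeR adjusted p = 1.66e-12). PSPH shares 24.8% of its exonic 31-base words with other places on the primary chromosomes, and its annotated copy PSPHP1 had 0 reads in all libraries. Within this route the 95% interval of the log2 fold change was -0.78 to -0.55 for PHGDH, -1.65 to -1.37 for PSAT1 and -1.40 to -1.12 for PSPH, so that the interval of the first enzyme lay apart from those of both later ones.

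SHMT2, the mitochondrial hydroxymethyltransferase (ENSG00000182199, chr12:57229573-57234935, forward strand), had 427, 374 and 402 TPM in the control. It had 215, 222 and 229 TPM in Cond 3. The groups did not overlap, and SHMT2 fell in Cond 3 with a log2 fold change of -0.88 (SE 0.0648, edgeR adjusted p = 3.56e-10).

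Its cytosolic counterpart SHMT1 (ENSG00000176974, chr17:18327860-18363563, reverse strand) had only 3 to 44 reads per library. The reads were 4, 10 and 6 in Cond 1, 7, 8 and 36 in Cond 2, 44, 8 and 16 in Cond 3, and 5, 34 and 3 in Cond 4. One library in each of Cond 2, Cond 3 and Cond 4 carried most of the reads of its condition, and all conditions overlapped. No difference in SHMT1 was detectable at this depth: the log2 fold change in Cond 3 was 1.59 with a 95% interval of -0.11 to 3.28 (edgeR adjusted p = 0.135), although it passed the threshold without the filter on low counts (adjusted p = 0.0312) and in a fit of the 6 libraries alone (0.0391).

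MTHFD2, the mitochondrial dehydrogenase and cyclohydrolase (ENSG00000065911, chr2:74186172-74217565, forward strand), had 231, 238 and 242 TPM in the control. It had 92.2, 79.7 and 88.5 TPM in Cond 3. No Cond 3 library came near the control range, and the log2 fold change was -1.48 (SE 0.0701, edgeR adjusted p = 2.41e-13). It shares 25.3% of its exonic 31-base words with other places on the primary chromosomes and 14.1% of its exonic bases with genes on the opposite strand, and its 7 annotated processed copies took 11 to 61 reads per library, at most 1.13% of the MTHFD2 reads.

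MTHFD1L, the mitochondrial enzyme that releases formate (ENSG00000120254, chr6:150865679-151101887, forward strand), had 91.4, 86.1 and 98.2 TPM in the control and 64.8, 62.0 and 64.8 TPM in Cond 3. The groups were separate, and the log2 fold change of -0.55 (SE 0.0718, edgeR adjusted p = 1.91e-06) was the smallest of the 8 declines. ALDH1L2, the mitochondrial formyltetrahydrofolate dehydrogenase (ENSG00000136010, chr12:105019784-105107643, reverse strand), had 17.1, 12.3 and 17.6 TPM in the control and 5.48, 5.58 and 5.70 TPM in Cond 3. It fell by 1.52 on the log2 scale (SE 0.115, edgeR adjusted p = 6.02e-10). Control replicate 2 was the lowest control library for ALDH1L2, and still above all of Cond 3.

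MTHFD1, the cytosolic 3-function enzyme (ENSG00000100714, chr14:64388031-64463457, forward strand), went the other way. It had 53.0, 49.4 and 51.9 TPM in the control, 31.2, 36.5 and 37.5 TPM in Cond 2, and 60.2, 60.7 and 61.4 TPM in Cond 3. The 3 conditions did not overlap, with Cond 2 lowest and Cond 3 highest. MTHFD1 rose in Cond 3 by 0.21 on the log2 scale (SE 0.0581, edgeR adjusted p = 0.00569), and fell in Cond 2 with a log2 fold change of -0.64 (SE 0.0591, edgeR adjusted p = 2.51e-08). Other annotated genes on the opposite strand share 11.1% of its exonic bases, and the strand setting of the counting is not given in the sources used here.

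Ratios within a library, which do not depend on the scaling between libraries, set the mitochondrial against the cytosolic arm. The MTHFD2 to MTHFD1 ratio of TPM was 4.36, 4.83 and 4.66 in the control libraries, 6.16, 6.14 and 6.62 in Cond 2, 1.53, 1.31 and 1.44 in Cond 3, and 4.44, 4.77 and 5.00 in Cond 4. Cond 2 lay above and Cond 3 below the control without overlap, with mean log2 differences of 0.45 and -1.69. The MTHFD1L to MTHFD1 ratio was 1.79 ± 0.0916 in Cond 1, 2.82 ± 0.177 in Cond 2, 1.05 ± 0.0272 in Cond 3 and 1.93 ± 0.0235 in Cond 4 (SD, n = 3). The size of this ratio, unlike its differences between conditions, depends on the gene lengths behind TPM. This ratio too was higher in Cond 2 and lower in Cond 3 than in every control library, with log2 differences of 0.66 and -0.76. It was also higher in Cond 4, by 0.11. The two-sided exact permutation p was 0.1 for each of these 5 non-overlapping differences, the smallest possible. None of the 9 ratio comparisons could therefore reach 0.05. The ratios of MTHFD2 and of MTHFD1L share the denominator MTHFD1, so they are not separate observations. In Cond 2 MTHFD1 itself was called lower (log2 fold change -0.64), whereas MTHFD2 (-0.19) and MTHFD1L (0.02) were not called. The log2 ratio of SHMT2 to SHMT1 was 2.30 lower in Cond 3 than in Cond 1 (exact permutation p = 0.1), but rests on the few SHMT1 reads given above.

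**Figure D3:**
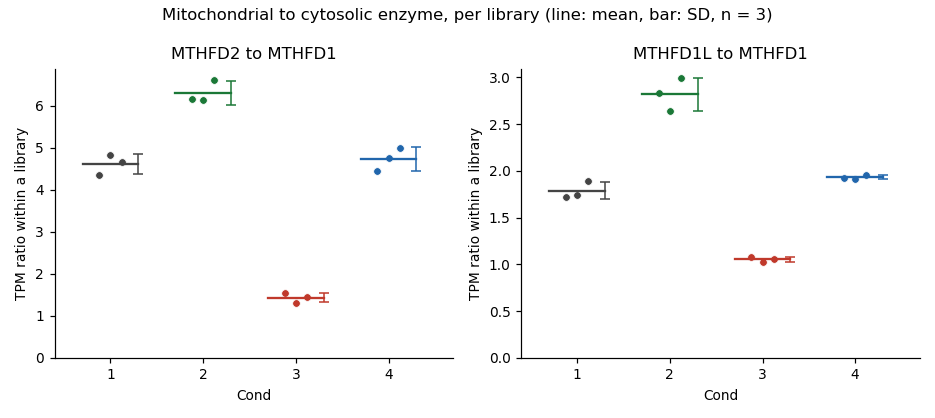
Ratio of the TPM of a mitochondrial enzyme (MTHFD2, left; MTHFD1L, right) to that of cytosolic MTHFD1 within each library, on linear axes from 0, for Cond 1 to Cond 4; points are libraries, lines the mean and bars the SD of 3 libraries. Both ratios are highest in Cond 2 (6.31 and 2.82 on average) and lowest in Cond 3 (1.43 and 1.05).

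ASNS, the asparagine synthetase (ENSG00000070669, chr7:97851677-97872542, reverse strand), had the largest decline of the 10 genes. It had 7.60, 5.32 and 8.54 TPM in the control, 6.95, 6.97 and 7.12 TPM in Cond 2, 1.43, 1.23 and 1.31 TPM in Cond 3, and 8.55, 6.65 and 9.25 TPM in Cond 4. The Cond 3 libraries held 33 to 43 reads and lay far below all the others, which overlapped. ASNS fell 5.51-fold in Cond 3, a log2 fold change of -2.46 with a 95% interval of -2.89 to -2.04 (edgeR adjusted p = 2.5e-09). Another annotated gene on the same strand, the lncRNA ENSG00000284707, shares 49.3% of the exonic bases of ASNS and took 21 to 79 reads per library. With both counts summed, the log2 fold change was -1.97 (edgeR adjusted p = 8.89e-09). The 4 annotated processed copies of ASNS took 5 to 16 reads per library in the control and 1 to 11 in Cond 3, which is 4.07% to 6.53% and 2.94% to 33.3% of the ASNS reads there.

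The next question was how the enzymes stood in the heated medium. In Cond 2, 1 of the 10 genes rose (PSAT1), 2 fell (SHMT2 and MTHFD1) and 7 did not pass the test, where 10.8% of all genes tested were called higher and 10.1% lower. None of the 10 was called with a change above 2-fold (1.84% of all genes higher and 2.5% lower), and their median log2 fold change was -0.12. MTHFD1, described above, was the gene with the clear decline. PSAT1 rose by 0.19 on the log2 scale (SE 0.0640, edgeR adjusted p = 0.0421), with separate TPM ranges. This call was lost without Cond 1 replicate 1 (adjusted p = 0.0885), Cond 1 replicate 2 (0.21), Cond 2 replicate 2 (0.103) or Cond 2 replicate 3 (0.166). SHMT2 had 355, 362 and 402 TPM in Cond 2, which overlapped the control, and a log2 fold change of -0.19 (SE 0.0641, edgeR adjusted p = 0.0372). That call was lost without Cond 1 replicate 1 (0.177), Cond 1 replicate 3 (0.105), Cond 2 replicate 1 (0.0809) or Cond 2 replicate 2 (0.156).

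MTHFD2 narrowly missed the threshold in Cond 2 (log2 fold change -0.19, SE 0.0678, edgeR adjusted p = 0.0542), with 192, 224 and 248 TPM around the control range. Without Cond 2 replicate 3 it passed (adjusted p = 0.00518), as did PHGDH (0.0149), and ALDH1L2 passed without Cond 1 replicate 2 (0.0152). For PSPH the TPM ranges did not overlap (136, 141 and 135 TPM, above the control), but the TMM-scaled log2 fold change was 0.03 with a 95% interval of -0.11 to 0.16. In TPM, 24.4% of all genes were higher and 11.2% lower in Cond 2 without overlap, an uneven split that the TMM-scaled calls did not show. For ASNS the interval was -0.48 to 0.24 and for MTHFD1L -0.13 to 0.16, so that changes within these limits cannot be told from none.

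Between the 2 altered media (Cond 3 against Cond 2), 8 of the 10 genes were lower in Cond 3 and MTHFD1 was higher, against 19.2% and 19% of all genes tested. The log2 fold change was -2.34 for ASNS, -1.69 for PSAT1, -1.29 for MTHFD2 and 0.85 for MTHFD1 (edgeR adjusted p = 5.65e-09, 8.02e-15, 2.08e-12 and 1.19e-10). This comparison shares its Cond 3 libraries with the one above. By the paper's account the heated medium was given earlier in culture than FBS, so medium and length of exposure cannot be told apart here.

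The last question was whether forceful pipetting at passage left a trace on Day 5. In Cond 4, 0 of the 10 genes passed the test in edgeR, DESeq2 or limma (where SHMT1 was filtered out), and 0 had an unadjusted edgeR p-value under 0.05, while 0.0282% of all genes tested (5 genes) were called. The lowest adjusted p-value was 0.885. For the 8 genes other than SHMT1 and ASNS the 95% intervals of the log2 fold change lay between -0.18 and 0.29, which is the size of change these libraries could have missed. For ASNS the interval was -0.19 to 0.53.

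Neighbouring pathways were examined as lists of genes, described by counts and medians alone. Of all genes tested, 19.5% were called higher and 18.8% lower in Cond 3, and 10.8% and 10.1% in Cond 2, with median log2 fold changes of -0.0064 and 0.0002. Of the 18 tested genes of the amino acid response downstream of ATF4, 18 fell in Cond 3 (100% against 18.8% of all genes), with a median log2 fold change of -1.95. GDF15, a stress-induced cytokine, fell from 125 ± 31.6 to 8.01 ± 1.02 TPM (SD, n = 3). The transcription factor ATF5 fell from 153 ± 37.9 to 14.9 ± 3.76 TPM. NUPR1 had 46 to 59 reads in the control libraries and 0 to 10 in Cond 3. In Cond 2 the same list had 2 genes higher, 11.1% of it (DDIT3, log2 fold change 0.43, and ATF3, 0.26), and 3 lower, 16.7% (GDF15, FGF21 and VLDLR, -0.80 for the last), with a median of 0.02, and 3 of its genes were called in all without Cond 1 replicate 1. ATF4 itself has no row in the count table. Its TPM was 645 ± 19.8 in Cond 1, 679 ± 11.1 in Cond 2, 534 ± 16.2 in Cond 3 and 661 ± 5.63 in Cond 4 (SD, n = 3). On log2(TPM + 1), limma gave a difference of -0.27 in Cond 3 (adjusted p = 0.00226) and 0.07 in Cond 2 (adjusted p = 0.327).

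**Figure D4:**
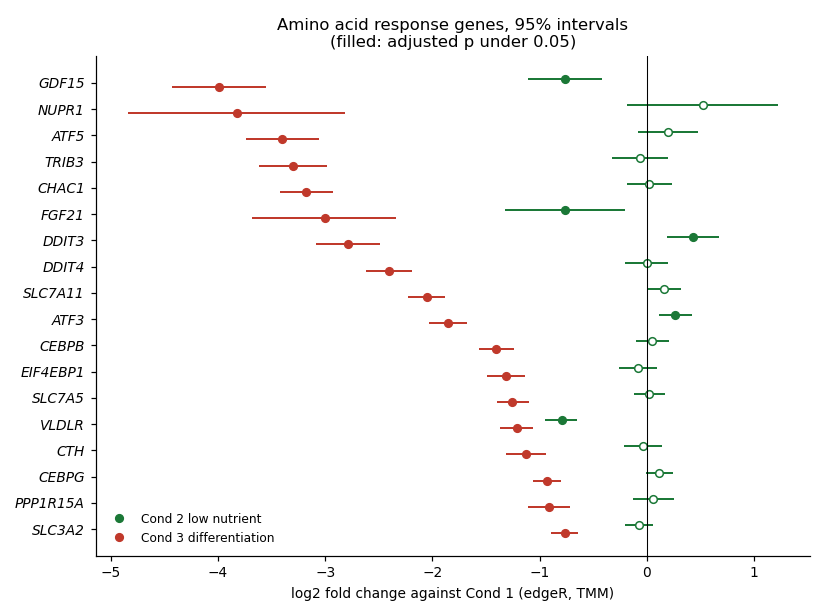
Log2 fold change against Cond 1 with its 95% interval (edgeR) for the 18 tested genes of the amino acid response list in Cond 2 and Cond 3, ordered by the Cond 3 value; filled points passed an adjusted p-value under 0.05. All 18 genes lie left of 0 in Cond 3, from -3.99 for GDF15 to -0.76 for SLC3A2, while 13 of the 18 Cond 2 points are open.

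Glycolysis, which supplies 3-phosphoglycerate, split in Cond 3, with 8 genes higher, 4 lower and 3 not called of 15 tested, which is 53.3% higher and 26.7% lower against 19.5% and 18.8% of all genes. The median was 0.17. LDHA, lactate dehydrogenase A, rose from 116 ± 9.72 to 234 ± 16.7 TPM. HK1, a kinase of the first step, fell from 210 ± 12.7 to 132 ± 3.19 TPM. HK2, which catalyses the same step, was not called (log2 fold change 0.14, edgeR adjusted p = 0.0835). ALDOA rose by 0.52 on the log2 scale, with 42.8% of its exonic bases shared with another gene on the same strand. In Cond 2 6 glycolytic genes (40.0% against 10.1% of all genes) fell and none rose, with PKM, the last kinase, at 242 ± 28.3 TPM against 465 ± 31.8 TPM in the control. HK1 (log2 fold change -0.67) and ALDOC (-0.64) were the next in size.

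Of 15 tested genes of glutamate, aspartate and proline metabolism, 7 fell (46.7% against 18.8% of all genes) and 1 rose (6.67% against 19.5%) in Cond 3, with a median of -0.15. The alanine transaminase GPT2 fell from 151 ± 5.84 to 75.0 ± 3.13 TPM. PYCR1, an enzyme of proline synthesis, fell as well (log2 fold change -0.94). In Cond 2 5 fell (33.3% against 10.1%) and 1 rose (6.67% against 10.8%). The latter was ASS1, the argininosuccinate synthase that uses aspartate, at 452 ± 46.5 TPM against 251 ± 29.4 TPM.

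Among 10 tested transporters of serine, glycine and asparagine, 6 rose (60% against 19.5% of all genes) and 3 fell (30.0% against 18.8%) in Cond 3, with a median of 0.19. SLC1A4, a neutral amino acid carrier that takes up serine, fell from 6.86 ± 0.861 to 2.11 ± 0.338 TPM. SFXN3, a relative of the mitochondrial serine carrier, rose from 0.875 ± 0.302 to 4.90 ± 0.864 TPM, and SLC7A10 rose by 1.59 on the log2 scale. In Cond 2 1 rose (SLC38A1, 0.17), which is 10.0% against 10.8% of all genes. In the same condition 2 fell (20.0% against 10.1%), SLC1A4 at -0.40 among them. That total of 3 became 1 without Cond 1 replicate 1 or Cond 1 replicate 2, and 0 without Cond 2 replicate 2.

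Of 12 tested folate genes, 1 rose (8.33%) and 2 fell (16.7%) in Cond 3, shares below the 19.5% and 18.8% of all genes, with a median of 0.15. The 2 that fell were GGH (log2 fold change -0.62) and the folate transporter SLC46A1 (-0.75). SLC46A1 had few reads (66 to 97 in Cond 1, 18 to 42 in Cond 2 and 45 to 59 in Cond 3). Genes on the opposite strand share 60.6% of its exonic bases. In Cond 2 1 folate gene rose (8.33% against 10.8% of all genes), the folate receptor FOLR1, from 7.35 ± 1.44 to 20.2 ± 4.11 TPM. The 3 that fell (25.0% against 10.1%) included SLC46A1 (-1.61) and GGH (-0.48). Of 6 tested genes of glycine cleavage and serine degradation, 2 fell in Cond 3 (33.3% against 18.8% of all genes) and none rose (against 19.5%). They were SDSL (-0.93) and DLD (-0.22), and the count was 1 without Cond 1 replicate 2 or Cond 3 replicate 1. In Cond 2 GLDC, the glycine decarboxylase, was the 1 gene that fell (16.7% against 10.1% of all genes), from 54.9 ± 3.11 to 44.1 ± 1.10 TPM. In that list 3 genes were called without Cond 1 replicate 3 and 2 without Cond 2 replicate 1.

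Of 11 tested genes of purine synthesis, which consumes formyl groups, 4 rose (36.4% against 19.5% of all genes) and 3 fell (27.3% against 18.8%) in Cond 3 around a median of -0.00, all by small steps between -0.19 (ATIC) and 0.34 (IMPDH1) on the log2 scale. PRPS2 was among those that rose (0.28). In Cond 2 2 rose (ADSS2 and PAICS, both 0.17), which is 18.2% against 10.8% of all genes, and 1 fell (9.09% against 10.1%). That total of 3 became 0 without Cond 1 replicate 1 or Cond 2 replicate 2, and 1 without Cond 1 replicate 2 or Cond 1 replicate 3. In Cond 4 none of the 7 lists had a called gene in the edgeR test.

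**Figure D5:**
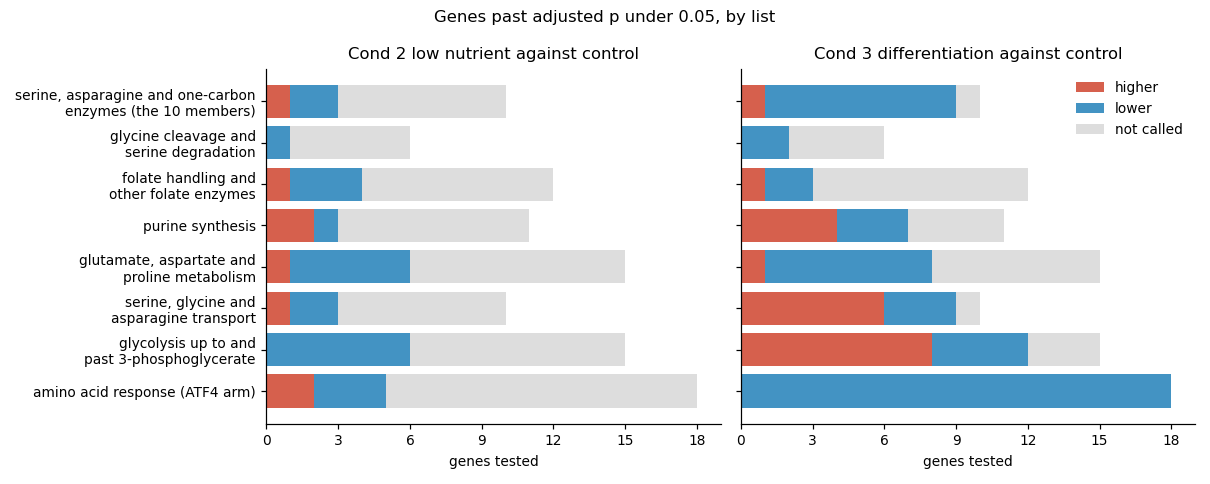
Number of tested genes called higher, called lower and not called (adjusted p-value under 0.05, edgeR) for the 10 enzymes and for 7 lists of neighbouring pathways, in Cond 2 (left) and Cond 3 (right) against Cond 1. In Cond 3 the 10 enzymes (8 lower, 1 higher) and the amino acid response list (18 lower) are mostly blue, while transport (6 higher) and glycolysis (8 higher) lean the other way.

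The genes whose pattern over the 12 libraries came closest to each enzyme were found by the root mean square difference of log2 CPM (counts per 1000000) centred by gene. For PSAT1 these were AKNA (0.0899) and CEBPB (0.114), and for PSPH HAX1 (0.0939) and SLC7A5 (0.107). For ALDH1L2 they were CEBPB (0.139) and MTHFD2 (0.145), the 1 case of another of the 10 enzymes among the nearest pair. SHMT2 was closest to HCN4 (0.0543) and SLC1A5 (0.0593), MTHFD1L to HSPA9 (0.0640) and NARS (0.0741), and PHGDH to BBC3 (0.0476) and TIMM44 (0.0504). ASNS was closest to BEST1 (0.227) and SLC7A11 (0.227), and MTHFD2 to RHBDD1 (0.132) and DDX25 (0.138). MTHFD1 and SHMT1 stood apart from the other enzymes. The nearest genes of MTHFD1 were MMP14 (0.0909) and MAPK13 (0.0926), and 11462 genes were closer to it than the nearest of the 10, PHGDH (0.502). The root mean square of MTHFD1 itself was smaller (0.324), so a gene that hardly changed also counts as closer. SHMT1 had no close partner (AP000619.2 at 0.601 and CFAP57 at 0.624), and 9983 genes were closer to it than the nearest of the 10, MTHFD1 (1.09).

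Promoter windows of 250 bases before to 50 bases after the annotated starts (RefSeq, GRCh38.p14) were searched on both strands for TGATGNAA, the core of the C/EBP-ATF response element that ATF4 is known to bind. Windows of 7 of the 10 enzymes were at hand, and 2 of them, ASNS (1 of 2 windows) and MTHFD1L (1 site in 3 overlapping windows of 4), held the core. It occurred in 3.62% of all 35116 windows, and 2.78% of the 11426 tested genes with a window had it. In the amino acid response list 5 of 17 genes with a window had it, among them CEBPG and CHAC1. In the transport list, of which most genes rose in Cond 3, 3 of 12 had it: SLC1A4 (-1.73) and SLC1A5 (-0.96), which fell, and SLC38A1 (0.15), which rose. It was found for 1 of 9 genes of glutamate, aspartate and proline metabolism, 1 of 16 of glycolysis and none of the folate, purine and glycine cleavage lists. The sites of both enzymes and of these 2 genes follow, 5′ to 3′ on the strand of the gene with the core in capitals, to let the letters around it be compared. For CHAC1 the core lies on the opposite strand.
ASNS (chr7:97872458-97872487, reverse strand): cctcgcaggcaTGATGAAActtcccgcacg
MTHFD1L (chr6:150866346-150866375, forward strand): gccgccggctcTGATGCAAtcgcgccgggc
CEBPG (chr19:33374060-33374089, forward strand): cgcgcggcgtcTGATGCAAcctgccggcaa
CHAC1 (chr15:40953251-40953280, forward strand): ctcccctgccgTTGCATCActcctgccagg
The core begins 68 bases before the start for ASNS, 129 for the last of the 3 MTHFD1L starts, 42 for CEBPG and 209 for CHAC1. No match was found in the windows of PHGDH, PSAT1, SHMT1, MTHFD1 and MTHFD2, which says only that these letters are absent there. Among these, PSAT1 (-1.51), MTHFD2 (-1.48) and PHGDH (-0.67) fell in Cond 3, MTHFD1 (0.21) rose and SHMT1 was not called. The part of the core in these changes was not tested.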

How the data were processed

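RNA-Seq libraries of 201B7 iPSCs were sequenced by the authors, who demultiplexed with bcl2fastq 2.20.0.422, trimmed with cutadapt 4.1 and fastp 0.20.1, aligned to GRCh38 with HISAT2 2.1.0 and counted with featureCounts (tools per the labels' processing notes and the methods). The annotation release, strand setting and treatment of multiply aligned reads are not given in the sources used here. The authors deposited whole-number counts per gene without normalization, and TPM, in which counts per gene length sum to 1000000 in each library (recomputed from the counts with a largest relative deviation of 5.22e-15). In the count table, 5 of 58580 lines held no whole gene row and were left out, and 2042 genes of the TPM table have no count row. Gene positions are from GENCODE (GRCh38), and list genes listed under an older symbol were matched by gene ID.

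Counts were filtered with filterByExpr, scaled by TMM and tested in one fit of 12 libraries with edgeR 4.0.16 (quasi-likelihood, no covariates, Benjamini-Hochberg) in R 4.3.3. TPM was compared by two-sided exact permutation tests, where 0.1 is the smallest p. The fits across all genes were tested on simulated data. Total counts set the precision, and intervals cover the spread between libraries. Replicates differed by more than sampling noise (chi-square per gene 4.07 to 9.58), so none was counted as a library deposited more than once. Alternatives were DESeq2 1.42.0, limma 3.58.1 on log2(TPM + 1) and log2(TPM + 0.1), upper-quartile scaling, other filters, 6 libraries alone, a replicate block, leaving out each library and, added after seeing the data, ASNS summed with its overlapping gene and the lists under every setting. All 10 enzymes were named. In each list up to 3 genes per comparison with the largest called and non-overlapping change were named, apart from 3 genes not reported here by name but kept in the counts, plus FGF21, GDF15 and SLC3A2 where a count or range called for them, and the 2 most alike genes per enzyme. CEBPG and CHAC1 were picked for the sequences, and SLC1A5, HK2, NANOG and POU5F1 named, after their values were seen. The enzymes, lists and tests were chosen with earlier results of these data known.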

Additional observations from a re-analysis of the deposited data

How the results depend on the processing

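In Cond 3 the 8 declines and the rise of MTHFD1 kept their direction and their side of the threshold under every alternative that tested them, and SHMT1 was the exception named in the report. Of 550 alternative values for single enzymes over the 4 comparisons, 505 kept direction and call, 10 gained a call, 13 lost it and 22 turned sign, all of them uncalled. In Cond 2, where 3 enzymes were called, the count was 1 with limma on log2(TPM + 0.1) and 1 to 4 when 1 library was left out. The cause was not tested. The PSAT1 call in Cond 2 was also lost with upper-quartile scaling (adjusted p = 0.0639), limma on log2(TPM + 0.1) (0.0519) and 6 libraries alone (0.075), and the SHMT2 call with limma (0.418 and 0.423). MTHFD2 in Cond 2 passed with DESeq2 (0.0431), upper-quartile scaling (0.0398), no filter (0.0137) and the TPM filter (0.0361).

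The signs that turned belonged to uncalled log2 fold changes near 0 or to SHMT1, and nearly all turned when 1 library was left out. In Cond 2 leaving out 1 library gave -0.02 to 0.05 for PSPH, -0.07 to 0.08 for MTHFD1L and -0.29 to 0.04 for ASNS, and ASNS summed with the overlapping gene gave 0.04. In Cond 4 it gave -0.10 to 0.00 for PHGDH, -0.05 to 0.04 for PSPH (-0.00 without a filter), -0.67 (without Cond 4 replicate 2) to 1.61 for SHMT1, -0.06 to 0.06 for SHMT2, -0.05 to 0.01 for MTHFD1, -0.02 to 0.05 for MTHFD2, -0.08 to 0.17 for ALDH1L2 and -0.00 to 0.33 for ASNS. In Cond 3 against Cond 2 SHMT1 ranged from -0.52 (without Cond 3 replicate 1) to 1.52.

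With limma on TPM at either pseudocount, list counts in Cond 2 moved to 3 and 3 for glycine cleavage (1 in edgeR), 2 and 2 for folate (4), 5 and 5 for purine synthesis (3), 3 and 3 for glutamate, aspartate and proline (6), 3 and 3 for glycolysis (6), and 3 and 3 for the amino acid response (5). Glycine cleavage counted 2 with DESeq2, 2 with upper-quartile scaling and 3 with the TPM filter. Purine synthesis counted 1 without a filter and 0 in 6 libraries alone, where transport counted 1 (3 in the main test). Leaving out 1 library gave 1 to 3 for glycine cleavage, 0 to 3 for purine synthesis, 0 to 3 for transport and 3 to 5 for the amino acid response, and 1 to 2 for glycine cleavage in Cond 3.

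Whether a replicate number marks a plate shared by the conditions is not stated. Deviations of same-numbered libraries correlated at -0.0131 to 0.0379 (18 pairs), so the numbers were not taken to pair them. With the replicate block, 4, 9, 0 and 9 enzymes were called in Cond 2, Cond 3, Cond 4 and Cond 3 against Cond 2, the fourth in Cond 2 being MTHFD2 (adjusted p = 0.0269). Depth limits SHMT1 most, at 3 to 44 reads, and then ASNS.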
